A study of Mus musculus with 28 samples.

Results

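Imprinted genes were read in the H3K4me3 and H3K27me3 profiles of striatal medium spiny neurons (MSNs). The 33 genes are known imprinted genes of the mouse, chosen by name and not by any value of these data, and all 33 were found among the 55450 genes of the annotation. They lie in 16 clusters, and 25 of them code for a protein. The study captured nuclei that carry the sfGFP-tagged SUN1 protein by INTACT, an affinity purification, and profiled them by CUT&RUN (CnR), in which an antibody directs a nuclease to cut out the marked chromatin. All of these mice were C57BL/6J and of both sexes. They were about 8 weeks old by the methods of the study, while its results give a wider range of ages. The A2a group was Sun1-sfGFP;A2a-cre, in which the tag marks MSNs of the indirect pathway. The D1 group was Sun1-sfGFP;Drd1-cre, in which it marks MSNs of the direct pathway. A group holds the cells in which its Cre driver was active, and the nuclei of a striatum went into each library.

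The 4 lists analysed, 1 for each cell type and mark, each pool 2 replicates. They hold 22551 A2a and 20080 D1 H3K4me3 peaks, and 60191 A2a and 45760 D1 H3K27me3 islands. The islands held 22091634 reads over 301 Mb in A2a and 7878685 reads over 184 Mb in D1. Library totals were not used here, because the lists do not state them. The lists give 1 pooled value per cell type, so no spread between replicates exists, no test was made, and every difference between A2a and D1 below is a description of these lists. The D1 H3K27me3 libraries carry A2a as their source name and D1 as their title and cell type, and they were read as D1, so every A2a to D1 comparison of H3K27me3 rests on that reading. Island reads were higher in the D1 list at 5 of 5 genes that mark A2a MSNs. They were higher in the A2a list at 4 of 5 genes that mark D1 MSNs, and *Sfxn1* went the other way, with no A2a island and a D1 island of 3.0 kb with 99 reads. At *Adora2a*, which marks A2a MSNs, the D1 list had an island of 45.0 kb with 4153 reads and the A2a list had none. At *Tac1*, a tachykinin gene of D1 MSNs, the A2a island was 61.0 kb with 9144 reads and the D1 island 2.8 kb with 121 reads. H3K4me3 peaks stood at 3 of 5 oligodendrocyte genes in each list, though not the same ones, at 2 of 5 astrocyte genes in each list, and at 2 of 5 microglia genes in A2a and 0 of 5 in D1. The part of such cells in the results was not tested.

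An imprinted gene is transcribed mainly from the copy inherited from a given parent. The choice is set in the germ line by DNA methylation of differentially methylated regions (DMRs), most of which are methylated on the maternal copy and serve as a promoter of the paternal copy. H3K4me3 marks active and poised promoters, and DNA methylation and H3K4me3 tend to exclude each other. H3K27me3 is laid down by Polycomb and marks silent genes, including the silent copy of some imprinted genes. The mice were inbred, so the lists do not separate the parental copies, and a promoter with a mark can carry it on either copy or on both.

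Peaks of genes listed here with a promoter at a maternally methylated DMR are shown as sequence. All 13 such genes had an H3K4me3 peak at an annotated transcript start in both lists. ZFP57, the zinc finger protein that keeps methylation at imprinted DMRs, recognises the motif TGCCGC when its CpG is methylated. The 300 bases around the summit of a gene's strongest peak are printed below where this window holds the motif and no annotated untranslated region. Overlap of that peak with the DMR was not checked. The *Mest* window met these conditions in both lists, and its A2a window is printed. Capitals mark TGCCGC or its reverse complement GCGGCA, and each run is read along its gene in GRCm38 (mm10), from RefSeq.
Nnat (A2a summit, chr2:157560342-157560641, plus strand): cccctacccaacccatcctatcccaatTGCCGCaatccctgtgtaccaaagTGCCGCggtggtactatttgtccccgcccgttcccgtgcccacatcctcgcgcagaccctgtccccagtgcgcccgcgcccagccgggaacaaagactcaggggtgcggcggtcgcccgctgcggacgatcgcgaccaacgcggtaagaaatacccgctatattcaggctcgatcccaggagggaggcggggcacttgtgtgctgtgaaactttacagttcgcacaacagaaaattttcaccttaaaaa
Plagl1 (A2a summit, chr10:13091056-13091355, plus strand): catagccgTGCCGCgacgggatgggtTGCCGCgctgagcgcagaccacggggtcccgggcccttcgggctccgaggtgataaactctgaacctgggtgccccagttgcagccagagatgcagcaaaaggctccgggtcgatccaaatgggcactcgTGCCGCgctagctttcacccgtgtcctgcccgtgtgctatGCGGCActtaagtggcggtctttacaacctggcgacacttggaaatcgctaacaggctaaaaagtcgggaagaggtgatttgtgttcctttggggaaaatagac
Mest (A2a summit, chr6:30738649-30738948, plus strand): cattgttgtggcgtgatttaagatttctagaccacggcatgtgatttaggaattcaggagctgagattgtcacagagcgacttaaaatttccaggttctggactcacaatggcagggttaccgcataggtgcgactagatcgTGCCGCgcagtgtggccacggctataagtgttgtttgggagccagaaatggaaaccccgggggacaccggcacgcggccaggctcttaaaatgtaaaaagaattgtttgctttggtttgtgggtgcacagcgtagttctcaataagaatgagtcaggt
Airn (A2a summit, chr17:12742213-12742512, plus strand): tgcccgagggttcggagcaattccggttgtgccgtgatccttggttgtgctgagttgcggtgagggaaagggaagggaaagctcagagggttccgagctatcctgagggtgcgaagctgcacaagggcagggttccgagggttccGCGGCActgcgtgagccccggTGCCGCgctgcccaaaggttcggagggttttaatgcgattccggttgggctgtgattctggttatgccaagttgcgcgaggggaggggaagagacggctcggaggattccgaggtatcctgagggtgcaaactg
Peg13 (D1 summit, chr15:72809965-72810264, minus strand): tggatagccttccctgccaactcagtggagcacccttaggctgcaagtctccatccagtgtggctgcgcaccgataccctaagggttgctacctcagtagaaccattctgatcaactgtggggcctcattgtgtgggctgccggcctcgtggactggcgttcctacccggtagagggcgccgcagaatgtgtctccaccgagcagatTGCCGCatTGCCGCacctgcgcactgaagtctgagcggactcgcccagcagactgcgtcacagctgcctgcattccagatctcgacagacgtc
The *Plagl1* window held 4 copies of the motif, those of *Nnat*, *Airn* and *Peg13* held 2 each, and that of *Mest* held 1. The count depends on which list gives the summit. With the D1 summit the window held 1 copy at *Plagl1*, 2 at *Nnat*, 1 at *Mest* and 0 at *Airn*. With the A2a summit the *Peg13* window held 0. All of these copies are matches of letters, and methylation was not measured. Among the 12 peaks of these 13 genes (*Peg10* and *Sgce* share 1 peak), 5 had the motif in the summit window in A2a and 6 in D1, or 41.7% and 50.0%. The motif was in 19.2% of A2a and 24.5% of D1 windows of the same length at peaks over any gene's 5′ end. Among the peaks of the other imprinted genes, 4 of 10 in A2a and 1 of 8 in D1 had it. In RefSeq promoters, 25 of the 33 genes were found, with 39 promoters of which 10 held the motif (9 genes), against 11.6% of all 32851 promoters. The 10 include *Mest* promoters that overlap almost fully, at chr6:30737800-30738099 and chr6:30737803-30738102, with the motif counted in each.

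The region upstream of *H19* is shown because CTCF, the insulator protein, binds there on the unmethylated maternal copy and separates *Igf2* from its enhancers. The letters searched, on both strands, were CCGCG, any base, GG, any base and GGCAG. They overlap TGCCGC where TG stands before them, as it does at the nearest and the farthest match below. They occurred 58 times on chromosomes 1 to 19, X and Y, and 3 of these lay within 10 kb of an imprinted gene analysed here. All 3 were upstream of *H19*, at 2.17, 2.62 and 3.89 kb from its 5′ end. The runs below hold 20 bases on each side of the match, which is in capitals.
H19 nearest match (chr7:142580289-142580342, minus strand): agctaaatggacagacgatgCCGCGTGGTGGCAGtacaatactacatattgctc
H19 middle match (chr7:142580744-142580797, minus strand): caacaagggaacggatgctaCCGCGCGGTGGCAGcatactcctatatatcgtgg
H19 farthest match (chr7:142582014-142582067, minus strand): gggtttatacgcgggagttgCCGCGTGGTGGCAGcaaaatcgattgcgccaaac
All 3 matches lay inside the A2a H3K27me3 island at *H19*, and the nearest match alone lay inside the D1 island. Of all islands, 11 in A2a and 8 in D1 held a match, or 0.0183% and 0.0175%.

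Of the 33 imprinted genes, 19 had an H3K4me3 peak at the promoter in A2a and 16 in D1. The promoter is taken from 2 kb upstream to 1 kb downstream of the gene's 5′ end, and a peak or island counts when it overlaps by at least 1 bp. Over all genes the share was 30.1% in A2a and 28.6% in D1. Over protein-coding genes it was 58.2% and 55.8%, and 14 and 11 of the 25 protein-coding imprinted genes had a peak, so they did not stand above other protein-coding genes. An H3K27me3 island lay at 13 promoters in A2a and 9 in D1, against 19.3% and 13.1% of all genes. Among the protein-coding imprinted genes it lay at 11 and 7 of 25, against 21.6% and 15.3% of all protein-coding genes. Both marks were present at 4 promoters in A2a and 2 in D1, against 4.96% and 2.87% of all genes. Among the 25 protein-coding imprinted genes the counts were 4 and 1, against 9.53% and 5.56% of protein-coding genes. At any annotated transcript start they were 8 and 7 of 33, against 6.08% and 3.66% of all genes, and the marks of a gene may then lie at different starts. Neither mark was present at 5 in A2a and 10 in D1, against 55.5% and 61.2%. Among protein-coding genes it was 4 and 8 of 25, against 29.7% and 34.5%.

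**Figure D1:**
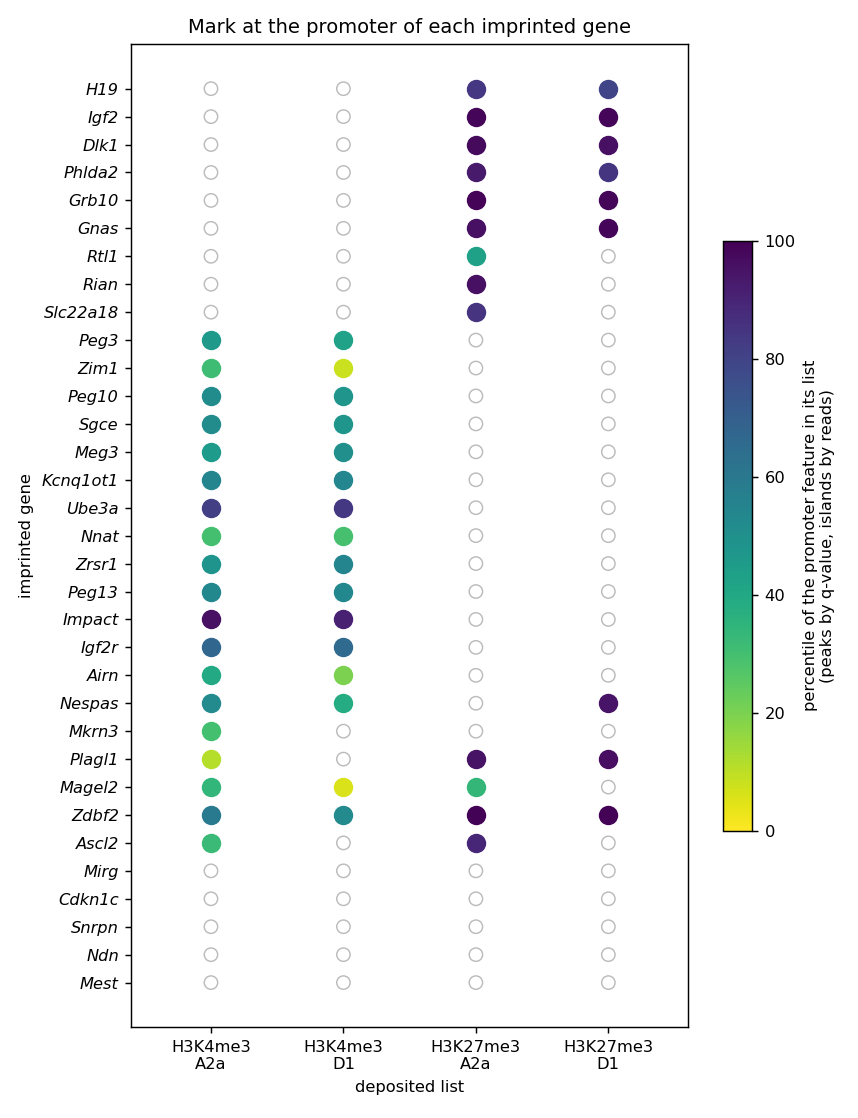
Promoter marks of the 33 imprinted genes (rows) in the 4 lists (columns). A filled point is a promoter peak or island, coloured by its percentile within its list (peaks by q-value, islands by reads), and an open point means that none overlapped; 13 genes have H3K4me3 alone and 6 have H3K27me3 alone in both cell types.

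The counts differed between genes grouped by the copy transcribed and by a listed DMR promoter. *Grb10* and *Gnas*, whose transcribed copy depends on the promoter, stood apart from these groups. Of the 13 genes with a promoter at a maternally methylated DMR, 11 had H3K4me3 and 1 had H3K27me3 at the 5′ end in A2a, and 10 and 2 had them in D1. *Plagl1* entered the H3K27me3 counts of both lists, and the H3K4me3 count of A2a, through marks at its annotated 5′ end. That end lies far upstream of its strongest peak, whose nearest island was 3.95 kb away in A2a and 8.6 kb in D1. Of the 7 other paternally expressed genes, 3 had H3K4me3 and 5 had H3K27me3 in A2a, and 2 and 3 had them in D1. Of the 11 maternally expressed genes, 5 had H3K4me3 and 5 had H3K27me3 in A2a, and 4 and 2 had them in D1. When any annotated transcript start was taken, 13 of the 13 DMR genes had H3K4me3 in both lists, where 31.7% of all genes in A2a and 30.1% in D1 had it. H3K27me3 then lay at 3 of the 13 in A2a and 4 in D1, where 20.5% and 14.2% of all genes had it. Shares over protein-coding genes at any start were not computed. At the 5′ end those shares were 58.2% and 55.8% for H3K4me3, and 21.6% and 15.3% for H3K27me3. The genes gained for H3K4me3 were *Snrpn* and *Mest* in both lists and *Plagl1* in D1, whose 5′ ends in the annotation lie far upstream of the peaks counted. The *Snrpn* peak lay 135 kb downstream of that 5′ end and was shared with the promoter of *Snurf*.

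The H3K4me3 peaks of the 13 genes with a DMR promoter were mostly lower than peaks over 5′ ends in general. The strongest peak at any annotated start was taken for each gene, and its overlap with the DMR was not checked. The median fold enrichment of these peaks over the local background was 4.83 in A2a and 4.9 in D1. For all peaks over a 5′ end it was 7.46 and 7.18. Of the 12 peaks, 9 in A2a and 10 in D1 were below that median. Their median length was 2.01 kb and 1.73 kb, against 1.53 kb and 1.43 kb, and 7 and 6 of 12 were above that median. Peaks both lower and longer than the median made up 6 of 12 in each list, against 30.6% and 27.2% of all peaks over a 5′ end. *Impact* entered these counts through its peak at the 5′ end, at 10.3 in each list. Its other peak, at downstream starts, was both lower and longer than the median in each list. That peak was 2.54 kb at 7.0 in A2a and 2.46 kb at 6.28 in D1. For the peaks of the other imprinted genes the median was 6.21 (A2a) and 5.06 (D1), and 6 of 10 and 4 of 8 were lower and longer. The shape was thus not seen in the 13 genes alone. These other peaks include those at downstream starts of *Grb10* and *Gnas*. Whether any of them lies at a DMR was not checked, so they are no set free of DMRs.

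**Figure D2:**
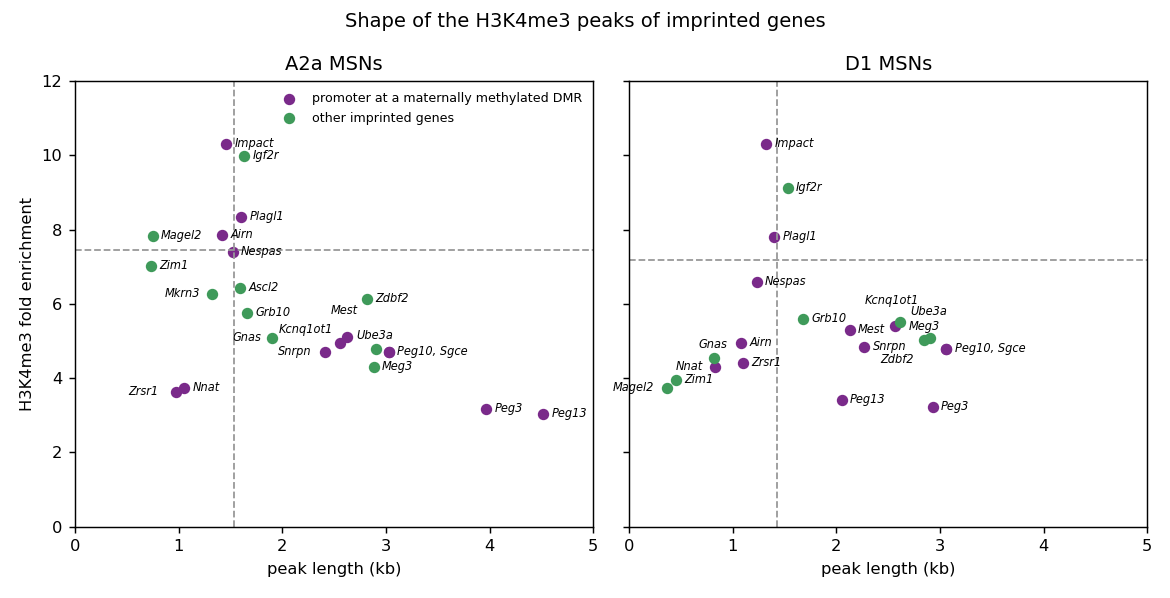
Length (x axis, kb) and fold enrichment (y axis, ratio to local background) of the strongest H3K4me3 peak at any transcript start of each imprinted gene, in A2a (left) and D1 (right). Dashed lines are the medians of all peaks over a gene's 5′ end; Peg13 and Peg3 lie at the bottom right in A2a, at 4.52 and 3.97 kb with fold enrichments of 3.04 and 3.16.

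Peak heights below are fold enrichments, so a peak at 3.04 has a fold enrichment of 3.04. *Peg13*, a paternally expressed noncoding RNA inside *Trappc9*, had a peak of 4.52 kb at 3.04 in A2a, longer than nearly every other peak over a 5′ end. In D1 the same stretch held a promoter peak of 2.05 kb at 3.41 and a separate peak of 1.46 kb further in the gene. *Peg3*, a zinc finger gene linked to maternal behaviour, had a promoter peak of 3.97 kb at 3.16 in A2a and 2.93 kb at 3.22 in D1, with a smaller D1 peak upstream. The *Peg3* peak also covers the 5′ end of *Usp29*, which is imprinted and transcribed the other way. Both genes thus had long and low peaks in each list. *Peg10*, derived from a retrotransposon, and *Sgce*, which encodes epsilon-sarcoglycan, share a bidirectional promoter and a peak of 3.03 kb at 4.71 in A2a and 3.06 kb at 4.78 in D1.

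*Kcnq1ot1*, the antisense RNA that silences its neighbours on the paternal copy, had a peak of 2.56 kb at 4.95 in A2a and 2.57 kb at 5.41 in D1. *Nnat*, a small membrane protein of neurons, had peaks at 3.73 and 4.3. *Zrsr1*, an intronless splicing factor gene inside *Commd1*, had peaks at 3.62 and 4.42. All 3 values were lower in A2a than in D1, at ratios of 0.914, 0.866 and 0.819. *Impact*, a regulator of translation, had its strongest peak at the annotated 5′ end, at 10.3 in each list. That was the 86.6th percentile of 5′ end peaks in A2a and the 89.6th in D1. A second *Impact* peak covered downstream starts, from 16.3 to 18.8 kb into the gene in A2a, and was 2.54 kb at 7.0. In D1 the second peak was 2.46 kb at 6.28. Which of these *Impact* peaks lies at the DMR was not checked. *Plagl1*, a zinc finger transcription factor, had its strongest peak from 29.6 to 31.2 kb into the gene in A2a, at 8.35, and from 29.7 to 31.1 kb in D1, at 7.81. *Mest*, a hydrolase-like protein of mesoderm, had its peak from 13.7 to 16.3 kb into the gene in A2a, at 5.12, and from 14.2 to 16.3 kb in D1, at 5.29. *Snrpn*, a splicing protein of neurons, had the shared peak with *Snurf* at 4.7 and 4.85.

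H3K4me3 without H3K27me3 was also found at genes whose promoter is no maternally methylated DMR. *Ube3a*, the ubiquitin ligase lost in Angelman syndrome and transcribed in neurons from the maternal copy, had the same interval of 2.9 kb as a peak in both lists, at 4.79 in A2a and at 5.09 in D1. *Igf2r*, the receptor that clears IGF2, had peaks at 9.98 and 9.13. *Meg3*, a maternally expressed noncoding RNA, had peaks at 4.29 and 5.03. The ratio of A2a to D1 was 0.94 at *Ube3a*, 1.09 at *Igf2r* and 0.852 at *Meg3*. *Zim1*, a zinc finger gene next to *Peg3*, had a peak at 7.03 in A2a and at 3.94 in D1.

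H3K27me3 without H3K4me3 was found in both cell types at 6 promoters, among them those of fetal and placental growth genes. The island at *Igf2*, a fetal growth factor, was 14.4 kb in both lists, with 2147 reads in A2a (95% Poisson interval 2057 to 2240, for counting error only) and 1033 in D1 (971 to 1098). The island at *Dlk1*, a transmembrane protein related to Notch ligands, was 18.6 kb with 1531 reads in A2a and 11.4 kb with 502 in D1. That at *Phlda2*, which restrains placental growth, was 9.4 kb with 858 reads and 3.6 kb with 222. The islands of *Igf2* and *Dlk1* were above the 95th percentile of reads in both lists (98.5 and 98.7, and 97.4 and 95.8). The H3K4me3 peak nearest to the *Igf2* promoter was 132 kb away in both lists, and the nearest to that of *H19* was 43.1 kb away in A2a and 43.2 kb in D1.

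*H19*, a maternally expressed noncoding RNA, had an island of 5.4 kb with 487 reads in A2a, from -4.06 to 1.34 kb relative to the 5′ end. In D1 the island was 4.4 kb with 187 reads, from -2.46 to 1.94 kb. The A2a island thus reached further upstream, over the CTCF matches shown above. Islands covered 51.4% of the gene in A2a and 74.3% in D1. *Plagl1* had islands of like length at its 5′ end, 8.2 kb with 1056 reads in A2a and 8.0 kb with 542 in D1.

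*Grb10* encodes an adaptor of insulin and growth factor receptors. It is transcribed from the maternal copy at an upstream promoter in most tissues, and from the paternal copy at a downstream promoter in neurons. Its upstream promoter lay in an island of 26.4 kb with 3213 reads in A2a and 15.6 kb with 1162 reads in D1. An H3K4me3 peak lay at a downstream start, from 12.2 to 13.8 kb into the gene in A2a at a fold enrichment of 5.76, and from 12.1 to 13.8 kb in D1 at 5.59. The A2a island covered that peak, and the nearest D1 island ended 0.459 kb from it. Upstream H3K27me3 and downstream H3K4me3 were thus found together in both cell types.

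*Zdbf2*, a paternally expressed zinc finger gene, was the only one with both marks at the annotated 5′ end in both cell types. At any annotated start *Gnas*, *Grb10*, *Nespas*, *Plagl1* and *Sgce* had them too, 6 of 33 in all against 3.38% of all genes. The *Zdbf2* peak was 2.82 kb at 6.14 in A2a and 2.61 kb at 5.5 in D1. The A2a island was 42.2 kb with 5231 reads, in the 99.6th percentile of its list. In D1 an island of 29.4 kb with 1780 reads ended 0.135 kb past the 5′ end, and another of 8.2 kb with 342 reads began 0.936 kb past it. The D1 islands thus left a gap inside the peak.

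The genes with no mark at the 5′ end in either list were *Mirg*, *Cdkn1c*, *Snrpn*, *Ndn* and *Mest*. *Snrpn*, *Mest* and *Ndn* had H3K4me3 peaks inside the gene. The *Ndn* peak, at necdin, a protein of postmitotic neurons, began 1.62 kb past the annotated 5′ end at fold enrichments of 9.52 and 9.55, and lay outside the promoter window by 0.616 kb. *Cdkn1c*, a cell cycle inhibitor, had an A2a island of 6.4 kb that began 0.049 kb beyond the window and covered 61.3% of the gene, and none of the gene was covered in D1. *Mirg*, a host of microRNAs, had no island in the gene, and a D1 peak reached its 3′ end.

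By cluster, with 10 kb added on each side, H3K27me3 islands covered 7.86% of 5119 kb in A2a and 5.53% in D1. The whole genome was covered to 11.0% and 6.76%. The pooled share is weighted by length, and 3211 of the 5119 kb belong to the *Snrpn* to *Ube3a* cluster, which was nearly bare. Taken one by one, 8 of 16 clusters in A2a and 7 in D1 were covered above the genome. The clusters split: *Peg3*, *Nnat*, *Zrsr1*, *Peg13*, *Impact* and *Igf2r* held no island in either list. The *Snrpn* to *Ube3a* cluster, which is lost in Prader-Willi and Angelman syndromes and spans 3211 kb, was covered to 0.081% and 0.0872%. The other clusters were each covered above the genome in at least 1 list. *Zdbf2* was covered to 55.3% in A2a and 39.4% in D1, *Plagl1* to 53.2% and 37.7%, and *H19* to *Igf2* to 30.7% and 17.8%. The *Kcnq1* cluster, where *Kcnq1ot1* recruits Polycomb in placenta, had 28 islands and 29.8% in A2a, and 16 islands and 12.8% in D1.

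**Figure D3:**
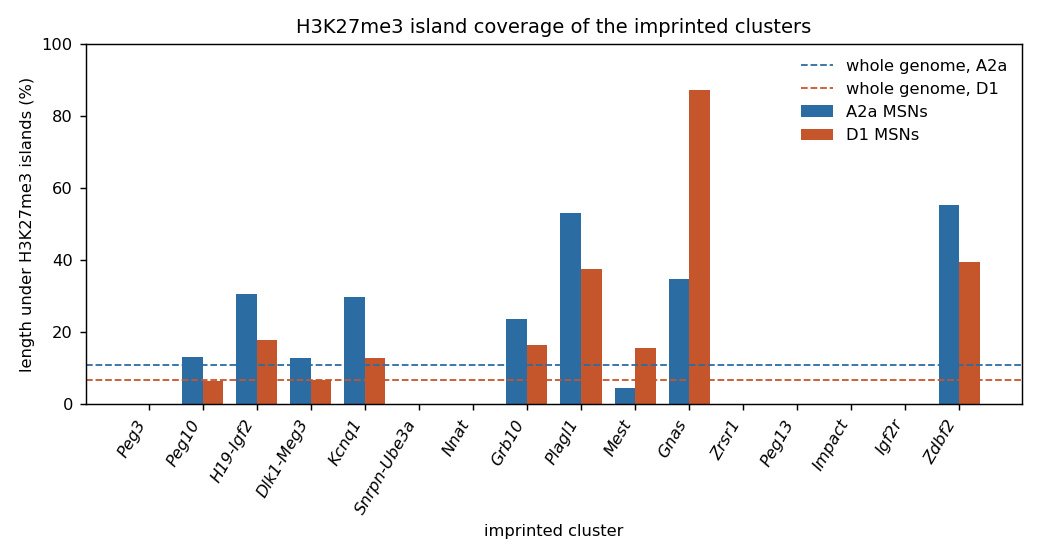
Share of each of the 16 imprinted clusters under H3K27me3 islands (y axis, percent of the length) in A2a and D1, with 1 pooled list per bar. Dashed lines give the whole genome (11.0% and 6.76%); coverage in D1 exceeds A2a by far at Gnas (87.2% against 34.9%).

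At *Gnas* and *Mest* more of the cluster was covered in D1, while over the genome more was covered in A2a. The *Mest* cluster was covered to 4.45% in A2a and 15.7% in D1. *Gnas* encodes the stimulatory G protein subunit Gs alpha, which couples receptors to adenylyl cyclase, from the last of several promoters. Islands covered 34.9% of the cluster in A2a, with 2721 reads, and 87.2% in D1, with 4557 reads, although the A2a list as a whole holds more reads. At the 5′ end the island was 8.4 kb with 1142 reads in A2a and 15.8 kb with 981 in D1. Within the gene, coverage was 37.3% in A2a and 94.6% in D1. In D1 an island of 40.8 kb with 2519 reads, in the 99.7th percentile of its list, ran from 14.1 to 54.9 kb past the 5′ end. In A2a the islands of this stretch ended at 38.1 kb, 2.0 to 6.2 kb long with 189 to 367 reads each. The 3′ part of the gene was thus covered in D1 and not in A2a.

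The H3K4me3 peaks of *Gnas* were present in both lists inside this region. They lay 43.0 to 43.8 kb past the 5′ end at 4.1 in A2a and 4.55 in D1. A further peak began at 45.2 kb in A2a, at 5.07, and at 45.3 kb in D1, at 4.04. In D1 both lay within the 40.8 kb island, and in A2a the nearest island was 7.12 kb from the stronger peak. *Nespas*, the paternally expressed antisense RNA inside *Gnas*, had a peak at 7.4 in A2a and 6.58 in D1, and an island at its promoter in D1 alone, of 7.0 kb with 447 reads. The nearest A2a island was 1.16 kb from that promoter, and the A2a island of 8.4 kb with 1142 reads covers another annotated start of *Nespas*. Reads cannot be assigned to *Nespas* or *Gnas* where they overlap. Gene body coverage higher in D1 by over 20 points was found for *Gnas* and *H19* among the 33, against 1.2% of all genes. Coverage higher in A2a by over 20 points was found for *Cdkn1c*, *Ascl2* and *Zdbf2*, against 8.35%. This comparison of gene bodies was chosen after the values at *Gnas* had been seen.

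**Figure D4:**
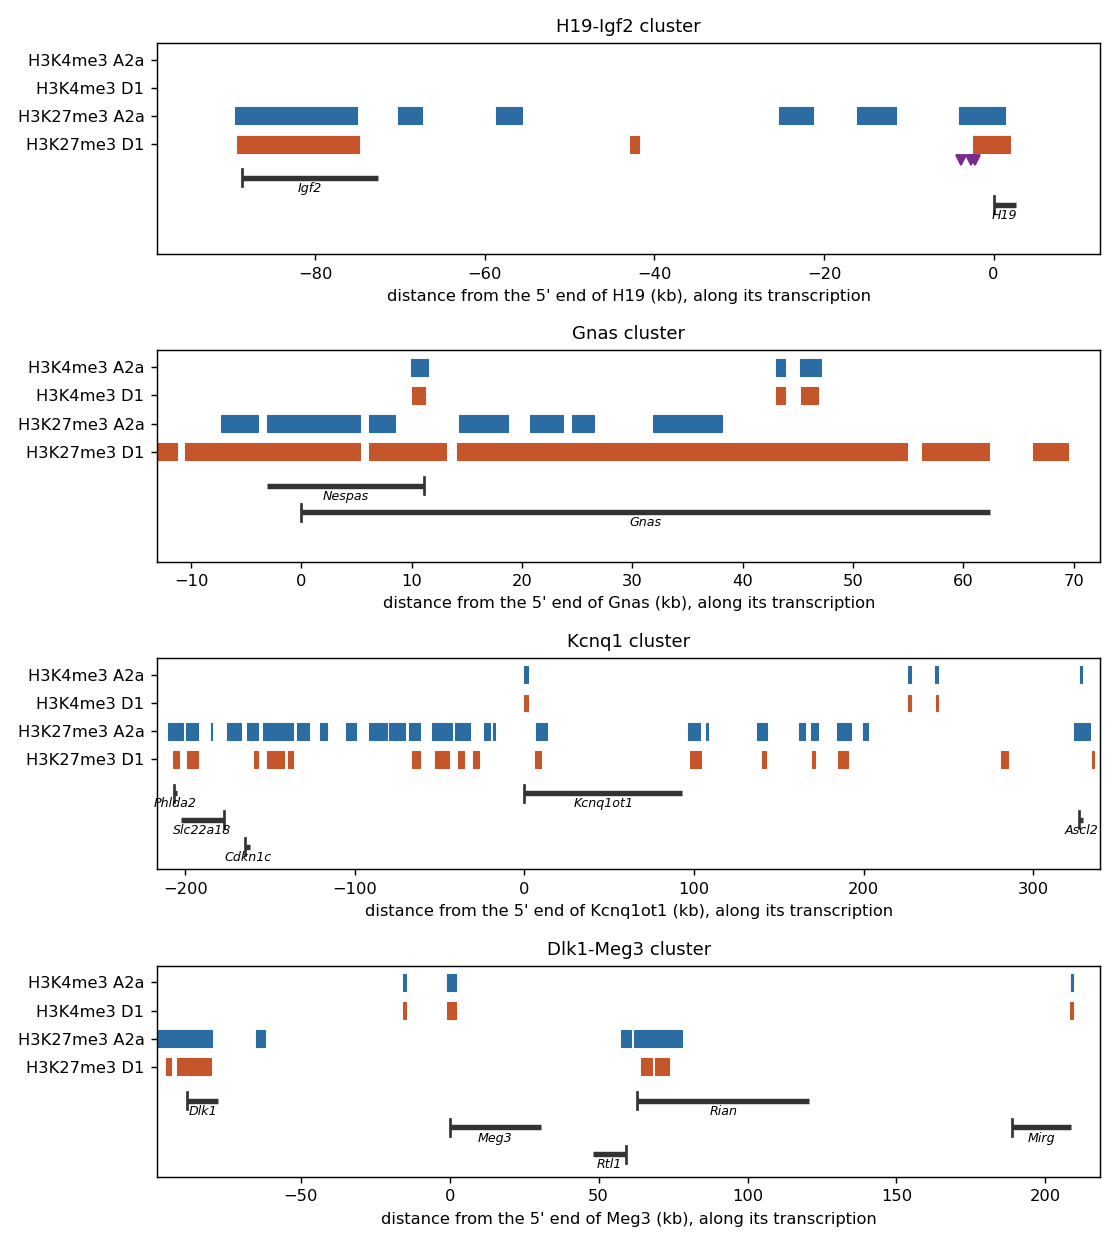
Peaks and islands in 4 imprinted clusters, by distance (x axis, kb) from the 5′ end of the gene named under each panel, along its transcription. Coloured bars are H3K4me3 peaks and H3K27me3 islands of A2a and D1, black bars are genes with a tick at the 5′ end, and triangles are the 3 CTCF matches upstream of H19; in D1 an island of 40.8 kb covers the downstream promoters of Gnas.

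Marks in 1 cell type alone were mostly in A2a. H3K4me3 was found in A2a alone at *Ascl2*, *Mkrn3* and *Plagl1*, 3 of 33 against 1.72% of all genes, and in D1 alone at 0 of 33 against 0.166%. These peaks were weak in A2a, at percentiles 32.2, 29.7 and 11.1 of their list. Among the glial genes, *P2ry12* and *Tmem119* of microglia and *Mog* of oligodendrocytes had a peak in A2a alone, at percentiles 13.2, 23.1 and 23.0, and *Mag* of oligodendrocytes had 1 in D1 alone, at percentile 2.75. The part of such cells in the A2a peaks was not tested. With the A2a lists cut to as many strongest features as D1 holds, the counts in A2a alone were 3 for H3K4me3 and 5 for H3K27me3. The share over all genes was not computed at this cut. The cut equalises the number of features and not the reads, so an effect of depth on these counts was not tested. H3K27me3 was found in A2a alone at *Rtl1*, *Rian*, *Slc22a18*, *Ascl2* and *Magel2*, 5 of 33 against 7.7% of all genes, and in D1 alone at *Nespas*, 1 of 33 against 1.51%. At any annotated start *Nespas* had an island in both lists and *Mest* was the gene with H3K27me3 in D1 alone, while *Plagl1* had H3K4me3 in both lists. *Rtl1* and *Rian* share 1 of these A2a islands, of 3.4 kb with 188 reads. *Rtl1* is a retrotransposon-derived gene and *Rian* a host RNA of snoRNAs and microRNAs. *Rian* had another A2a island of 16.0 kb with 1190 reads, and its first D1 island began 1.46 kb past the 5′ end, 0.46 kb beyond the promoter. The island at *Slc22a18*, a transporter gene, ended at -1.94 kb, close to the edge of the promoter.

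*Ascl2*, a transcription factor of placental and intestinal stem cells, had both marks in A2a and neither in D1. In A2a it had a peak of 1.59 kb at a fold enrichment of 6.44 inside an island of 9.0 kb with 629 reads that covered the whole gene. In D1 the nearest island was 6.26 kb from the promoter window. *Magel2*, a Prader-Willi gene of the MAGE family, had a peak at 7.82 inside an island of 2.6 kb with 166 reads in A2a, and a peak of 0.37 kb at 3.73 with no island in D1. *Mkrn3*, a ubiquitin ligase involved in the timing of puberty, had a peak at 6.27 in A2a, and the nearest D1 peak was 11.8 kb from its promoter window.

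Where both lists had the mark, levels were compared relative to the median ratio of all genes. The 8 promoters with an island in both lists had 1.48 to 2.2 times as many reads per kb in A2a, with a median of 1.99, where the median over 6448 genes was 1.87. At 0 of 8 did the ratio pass 2-fold of that median, and over all genes it did so for 0.31% toward A2a and 0.186% toward D1. For H3K4me3, the ratio of fold enrichments ran from 0.819 to 2.1 at the 16 promoters with a peak in both lists, with a median of 0.986, where the median over 15744 genes was 1.04. It passed 1.5-fold of the median toward A2a at 3 of 16, against 3.03% of all genes, and toward D1 at 0 of 16, against 0.546%. On the −log10 q scale 4 of 16 passed it toward A2a, against 9.58% of all genes, and 2 of 16 toward D1, against 8.6%. By fold enrichment the 3 were *Magel2* (2.1), *Zim1* (1.79) and *Airn* (1.58). All 3 had D1 peaks in the lowest 20% of their list by q-value, at the 5.8th, 8.13th and 19.7th percentile. *Airn*, the antisense RNA that silences *Igf2r* on the paternal copy, had a peak at 7.85 in A2a and 4.96 in D1.

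**Figure D5:**
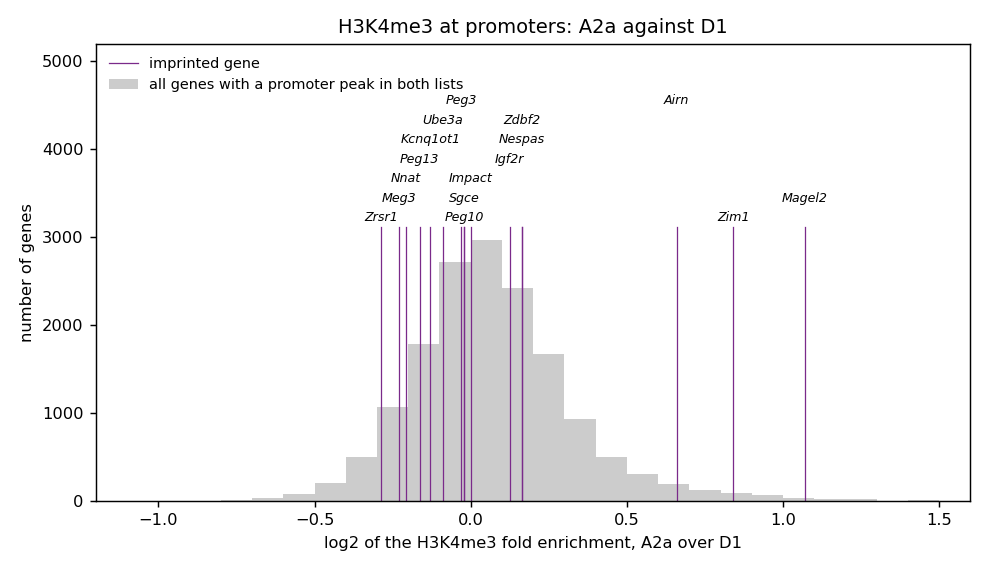
Ratio of H3K4me3 fold enrichment in A2a over D1 (x axis, log2) for all 15744 genes with a promoter peak in both lists (grey bars, number of genes per bin of 0.1) and for the 16 imprinted genes (vertical lines). Zrsr1 is the lowest at a ratio of 0.819 and Magel2 the highest at 2.1, before the log.

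Other imprinted genes, 51 in number, had H3K4me3 at 30 promoters in A2a and 26 in D1, H3K27me3 at 19 and 16, and both marks at 12 and 6. Over all genes the shares were 30.1% and 28.6% for H3K4me3, 19.3% and 13.1% for H3K27me3, and 4.96% and 2.87% for both. Over protein-coding genes they were 58.2% and 55.8%, 21.6% and 15.3%, and 9.53% and 5.56%. H3K4me3 was in A2a alone at *Calcr*, *Klf14*, *Peg12* and *Tnfrsf23*, 4 of 51 against 1.72% of all genes. H3K27me3 was in A2a alone at *Begain*, *Gpr1* and *Slc22a3*, 3 of 51 against 7.7%. In D1 alone each mark was at 0 of 51, against 0.166% of all genes for H3K4me3 and 1.51% for H3K27me3. *Dio3*, which inactivates thyroid hormone and is the neighbour of *Mirg*, had an island of 46.2 kb with 3688 reads in A2a and 12.8 kb with 764 in D1. Of 14 genes that set or keep imprints, 8 had H3K4me3 in each list, and H3K27me3 lay at 4 in A2a and 3 in D1. The shares over all and over protein-coding genes are those given above. *Zfp57* had an island without a peak in both lists, of 3.2 kb with 273 reads in A2a and 4.4 kb with 164 in D1. *Zfp445*, which encodes another protein that keeps imprints, had a peak without an island, at 11.5 in A2a and 11.4 in D1.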

How the data were processed

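CnR libraries were made from INTACT nuclei of A2a and D1 MSNs, and 8 of 28 samples enter the 4 lists. The other 20 samples were not analysed here. Reads were aligned by the authors (bowtie2 2.1.0, mm10), filtered at mapping quality 20 (samtools 0.1.19) and cleared of duplicates. For H3K4me3 (Abcam) the authors ran MACS2 with a q-value limit of 0.01, and each deposited peak has a fold enrichment, a −log10 q-value and the offset of the summit. For H3K27me3 (Active Motif) the authors ran SICER with a control that is not named in the sources used here, and the deposited value is the count of reads per island, not normalized for depth. Fold enrichments and reads of A2a and D1 are therefore set against the median ratio of all genes. Longer islands hold more reads, so lengths are given beside counts.

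Genes were taken from GENCODE vM21 (GRCm38) and sequences from RefSeq GRCm38. Intervals on reads are exact Poisson intervals at 95%. No test was made. All 33 genes are named, as are other imprinted genes marked in 1 cell type alone or sharing a peak with a member. *Snurf*, *Dio3*, *Zfp57*, *Zfp445*, *Adora2a*, *Tac1*, *Sfxn1*, *P2ry12*, *Tmem119*, *Mog* and *Mag* are named outside that rule, with their values already known. The genes and lists were chosen with earlier results of these data known. Alternatives changed the promoter window, the transcript start, the overlap, the thresholds and the length of the lists. Scripts were tested on simulated data. Python (version 3.11.15), scipy (version 1.17.1) and matplotlib (version 3.10.9) were used.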

Additional observations from a re-analysis of the deposited data

How the results depend on the processing

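The 20 results were recomputed under 10 settings, 86 values in all, and 80 of these stayed within 1.5 times the reported count, or within the binomial interval of a cluster share. That interval takes each kb as an independent trial. The cut to as many strongest features as D1 holds shortens the A2a lists alone. The D1 promoter counts and the D1 cluster share could therefore not move under it, and they are among the 80. With any annotated transcript start, promoters with both marks rose from 4 to 8 in A2a and from 2 to 7 in D1. Cluster coverage was 8.88% in A2a with a flank of 50 kb and 4.88% in D1 with no flank. With island length in place of reads per kb, 1 of 8 genes (*Gnas*, toward D1, against 7.26% of all genes) in place of 0 passed the 2-fold threshold, and with −log10 q in place of fold enrichment 6 of 16 in place of 3 passed the 1.5-fold threshold. These were *Airn*, *Magel2*, *Nespas* and *Zim1* toward A2a, against 9.58% of all genes, and *Meg3* and *Zrsr1* toward D1, against 8.6%. The cause was not tested. No paired analysis was possible because each list pools its 2 replicates. Leaving out a replicate was not possible for the same reason. In the gene body comparison, added after seeing the data, leaving out genes under 10 kb removed *H19* (2 to 1 in D1), *Cdkn1c* and *Ascl2* (3 to 1 in A2a) by their length, and the remaining counts are 1 of 23 each, against 0.596% and 8.98% of genes of that length.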
